A study of Mus musculus with 24 samples.

Results

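Inhba, Il23a, Ptprn, Penk, Spp1, Itih5, Tnip3 and Sntb1 were followed through 4 treatments of CD8 T cells by RNA-seq and ATAC-seq. These 8 genes were picked because their transcripts moved far with Oxyrase, pyruvate or lactate in these same RNA libraries, by no stated size of change, so their RNA levels are given as a description, without a test. They are 8 of the 55401 genes of the deposited RNA table, and all 8 were among the 14749 genes left after genes with low counts had been removed. For each gene the ATAC-seq peaks with any base within 50 kb of the annotated gene were collected, 71 of 75802 peaks, and these were tested, since the choice rested on RNA. The cells were CD8 T cells of C57BL/6J mice, taken from spleen and lymph nodes and cultured for 3 days, activated with anti-CD28 (0.5 µg/mL) in the presence of IL-2 at 100 U/mL. From day 2 to day 3 they received sodium lactate with Oxyrase, sodium pyruvate, sodium lactate or, as the sodium control, NaCl, at 20 mM for each salt. Oxyrase is a preparation of bacterial membranes that uses up oxygen in a medium. Its dose is not given in the sources used here, and it was given only together with lactate, so lactate alone is its reference. Each group had 3 RNA and 3 ATAC libraries, 24 in all. The labels do not say whether these came from separate animals or cultures, so a p-value covers at most the spread between these libraries.

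Most of the 8 genes are known for other cells than CD8 T cells. Inhba encodes the βA chain of activin A, a TGF-β family ligand. Il23a encodes p19, the chain that pairs with the shared p40 chain to make the cytokine IL-23, a product chiefly of dendritic cells and macrophages. Spp1 encodes osteopontin, a secreted ligand of integrins and CD44, and Penk encodes proenkephalin, the precursor of the enkephalin opioid peptides. Ptprn encodes IA-2, a membrane protein of dense-core secretory vesicles in neuroendocrine cells. Itih5 encodes a secreted heavy chain that binds hyaluronan, Tnip3 encodes ABIN-3, a binding partner of the NF-κB inhibitor A20, and Sntb1 encodes β1-syntrophin, an adaptor of the dystrophin complex.

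The promoter window of a gene here runs from 250 bases before to 50 bases after a RefSeq start site. RefSeq sequences of build GRCm38.p6 were at hand for 5 of the 8 genes: Inhba, Ptprn, Spp1, Itih5 and Tnip3. Shown are the 4 promoters that overlap a peak called more accessible with lactate and Oxyrase than with NaCl, in gene direction from 5′ to 3′. Of these peaks only that at Ptprn also passed against lactate alone. The calls against NaCl at Inhba, Spp1 and Tnip3 were lost in 9, 3 and 4 of 21 alternative analyses. Capitals mark matches, on either strand, to the short letters of 4 motifs: ACGTG (the core of a hypoxia response element), TGANTCA (AP-1), TGACG (the core of a cAMP response element) and GGAAA (the core of an NFAT site). The 4 windows are chr13:16011601-16011900 on the + strand for Inhba, chr1:75264159-75264458 on the - strand for Ptprn, chr5:104434861-104435160 on the + strand for Spp1 and chr6:65590148-65590447 on the + strand for Tnip3. Of their 300 bases, 31 lie in the peak at Inhba, 201 at Ptprn, 300 at Spp1 and 246 at Tnip3, and the Inhba start site used here lies inside the annotated gene.
Inhba: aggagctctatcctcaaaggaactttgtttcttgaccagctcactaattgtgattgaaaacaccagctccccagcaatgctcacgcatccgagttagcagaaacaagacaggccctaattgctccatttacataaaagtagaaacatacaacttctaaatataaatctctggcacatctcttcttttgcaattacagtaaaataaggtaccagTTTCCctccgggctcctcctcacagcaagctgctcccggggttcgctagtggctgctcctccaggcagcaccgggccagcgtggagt
Ptprn: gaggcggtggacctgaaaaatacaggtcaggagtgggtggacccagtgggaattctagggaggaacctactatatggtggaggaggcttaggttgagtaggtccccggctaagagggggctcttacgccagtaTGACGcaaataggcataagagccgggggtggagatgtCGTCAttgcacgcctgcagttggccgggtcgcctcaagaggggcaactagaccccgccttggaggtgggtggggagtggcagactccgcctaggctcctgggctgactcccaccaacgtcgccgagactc
Spp1: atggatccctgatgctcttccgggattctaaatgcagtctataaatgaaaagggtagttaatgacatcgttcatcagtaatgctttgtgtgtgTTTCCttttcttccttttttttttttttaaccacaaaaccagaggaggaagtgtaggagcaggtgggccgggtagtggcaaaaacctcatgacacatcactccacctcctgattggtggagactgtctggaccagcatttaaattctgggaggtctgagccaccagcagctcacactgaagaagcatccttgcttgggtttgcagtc
Tnip3: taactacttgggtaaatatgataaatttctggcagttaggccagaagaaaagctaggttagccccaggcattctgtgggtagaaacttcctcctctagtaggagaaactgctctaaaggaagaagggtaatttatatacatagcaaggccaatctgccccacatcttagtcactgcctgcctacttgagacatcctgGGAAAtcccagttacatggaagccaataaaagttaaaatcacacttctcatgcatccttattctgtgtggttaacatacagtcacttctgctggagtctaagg
The cAMP response element core stood 2 times in the Ptprn window, 1 on each strand. The NFAT core stood 1 time each in the Inhba, Spp1 and Tnip3 windows, on the gene's own strand in Tnip3 and on the opposite strand in Inhba and Spp1. The Inhba match, at bases 214 to 218 of its window, lies outside the peak. The hypoxia response core and the AP-1 motif were found in none of these 4 windows, and the Itih5 window at chr2:10153293-10153592 held none of the 4 motifs. Over all 32851 promoter windows of the RefSeq table, 19.6% held the hypoxia response core, 7.81% the AP-1 motif, 20.8% the cAMP response element core and 61.3% the NFAT core. Matches this short are common and are given as a description of the letters only.

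RNA libraries held 26.04 to 39.64 M counts (M, 1000000) and ATAC libraries 25.31 to 37.07 M counts in peaks. Each of the 12 RNA libraries lay nearest to a library of its own group. Of the 12 ATAC libraries 9 did so; NaCl 1 lay nearest to pyruvate 1, and NaCl 3 and lactate 1 lay nearest to each other. Counts of peaks that rest on these groups are therefore also given without NaCl 3 or without lactate 1. RNA and ATAC levels are CPM, counts per 1000000 counts of a library whose total was scaled by TMM, the edgeR normalization. They are not corrected for gene length and can be compared between groups but not between genes. Within groups the SD of the 8 genes was 1.198% to 31.0% of the mean (n = 3 each). The RNA values look adjusted by replicate number, which could draw libraries of a group together. These SD and the nearest RNA libraries are therefore no measure of the unadjusted spread.

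In 5 of the 8 genes the RNA was highest with lactate and Oxyrase, and 4 of these genes encode secreted proteins. Inhba (ENSMUSG00000041324, chr13:16004256-16031609) had 132.22, 112.94 and 116.07 CPM with lactate and Oxyrase. Its level was 14.97, 19.44 and 18.61 CPM with pyruvate, 2.94, 4.31 and 3.83 CPM with lactate, and 8.88, 5.91 and 4.97 CPM with NaCl. No library of a group reached into the range of another, so the activin chain ran in the order lactate with Oxyrase, pyruvate, NaCl, lactate. The fitted log2 fold change was 5.01 for lactate with Oxyrase against lactate and 4.17 against NaCl, 1.40 for pyruvate against NaCl and -0.83 for lactate against NaCl.

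Il23a (ENSMUSG00000025383, chr10:128296140-128298084) had 387.29, 284.51 and 307.59 CPM with lactate and Oxyrase. It had 13.71, 14.76 and 16.50 CPM with pyruvate, 10.79, 10.94 and 9.36 CPM with lactate, and 14.63, 10.35 and 13.30 CPM with NaCl. The IL-23 chain thus stood apart in the Oxyrase libraries, whereas the ranges of pyruvate and NaCl overlapped, as did those of lactate and NaCl. Its log2 fold change with Oxyrase was 4.98 against lactate, the largest after Inhba among the 8. With pyruvate against NaCl it was 0.23, and with lactate against NaCl -0.30.

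Spp1 (ENSMUSG00000029304, chr5:104435111-104441053) had 192.33, 152.76 and 171.58 CPM with lactate and Oxyrase and 90.25, 101.59 and 100.03 CPM with pyruvate. It had 26.06, 24.57 and 27.40 CPM with lactate and 25.62, 25.26 and 25.87 CPM with NaCl. Osteopontin transcripts were high both with Oxyrase and with pyruvate, and the lactate and NaCl ranges overlapped. The log2 fold change was 2.73 for lactate with Oxyrase against lactate, 1.93 for pyruvate against NaCl and 0.02 for lactate against NaCl.

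Penk (ENSMUSG00000045573, chr4:4133536-4138815) had 102.74, 106.88 and 121.66 CPM with lactate and Oxyrase and 45.65, 54.54 and 55.63 CPM with pyruvate. It had 15.62, 16.53 and 14.16 CPM with lactate and 30.92, 28.28 and 25.49 CPM with NaCl. No 2 groups overlapped, and the order was that of Inhba. The log2 fold change of the enkephalin precursor was 2.84 for lactate with Oxyrase against lactate, 0.87 for pyruvate against NaCl and -0.88 for lactate against NaCl.

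Ptprn (ENSMUSG00000026204, chr1:75247035-75264497) had 37.22, 30.64 and 30.53 CPM with lactate and Oxyrase and 7.71, 6.91 and 7.31 CPM with pyruvate. It had 1.02, 1.15 and 1.32 CPM with lactate and 2.32, 2.56 and 2.01 CPM with NaCl. This vesicle protein gene also had no overlap between groups and ran in the order of Inhba and Penk. Its log2 fold change was 4.80 for lactate with Oxyrase against lactate, 1.66 for pyruvate against NaCl and -0.98 for lactate against NaCl, the lowest of the 8 in that comparison.

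**Figure D1:**
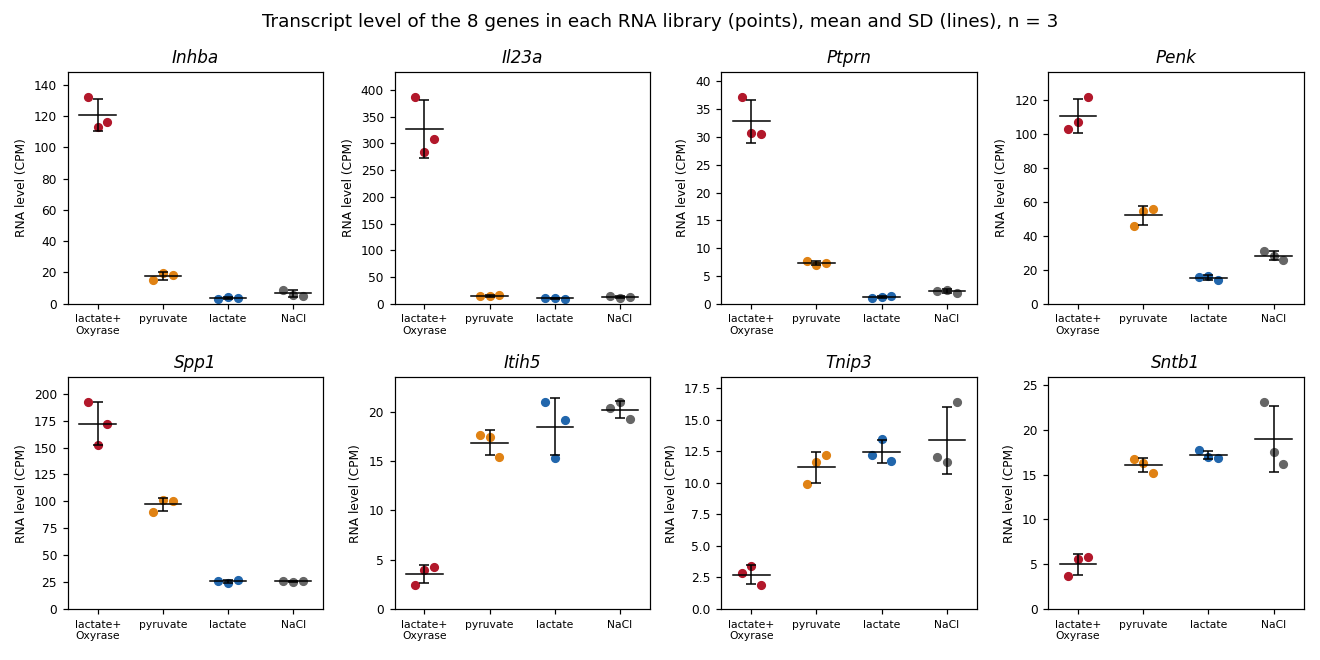
RNA level in CPM (vertical axes, each from 0) of the 8 genes in lactate with Oxyrase, pyruvate, lactate and NaCl; points are libraries, lines the mean with its SD (n = 3). In the Oxyrase group Inhba, Il23a, Ptprn, Penk and Spp1 lie above every other library, and Itih5, Tnip3 and Sntb1 lie below every other library.

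The other 3 genes were lowest with lactate and Oxyrase and nearly level among the remaining groups. Itih5 (ENSMUSG00000025780, chr2:10153536-10256529), the hyaluronan-binding heavy chain, had 2.48, 3.92 and 4.28 CPM with lactate and Oxyrase. It had 17.69, 17.46 and 15.42 CPM with pyruvate, 20.98, 15.33 and 19.18 CPM with lactate, and 20.39, 21.00 and 19.32 CPM with NaCl. The Oxyrase libraries lay below all 9 others, with a log2 fold change of -2.36 against lactate, and the pyruvate range lay just below that of NaCl, with a log2 fold change of -0.26.

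Tnip3 (ENSMUSG00000044162, chr6:65590398-65634040), the A20-binding protein gene, had 2.85, 3.40 and 1.91 CPM with lactate and Oxyrase. It had 9.86, 11.62 and 12.17 CPM with pyruvate, 12.19, 13.45 and 11.75 CPM with lactate, and 12.01, 11.63 and 16.39 CPM with NaCl. The log2 fold change was -2.21 for lactate with Oxyrase against lactate and -0.24 for pyruvate against NaCl. Sntb1 (ENSMUSG00000060429, chr15:55636388-55907302), the syntrophin gene, had 3.67, 5.54 and 5.77 CPM with lactate and Oxyrase. It had 16.72, 16.27 and 15.18 CPM with pyruvate, 17.76, 17.02 and 16.87 CPM with lactate, and 23.13, 17.50 and 16.20 CPM with NaCl. For both genes the Oxyrase libraries lay below all 9 others, and the log2 fold change of Sntb1 against lactate was -1.77. The pyruvate and lactate ranges of Sntb1 did not overlap, but the difference was small, with a log2 fold change of -0.10.

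Placed among all 14749 tested genes, the genes high with Oxyrase ranked near the top in several comparisons, and the genes low with Oxyrase ranked near the bottom only where Oxyrase was involved. For lactate with Oxyrase against lactate, Inhba, Il23a and Ptprn ranked 43, 44 and 49 from the top, Penk 167 and Spp1 182. Itih5, Tnip3 and Sntb1 ranked 32, 43 and 71 from the bottom. With pyruvate against NaCl, Spp1 ranked 84, Ptprn 110, Inhba 157 and Penk 383 from the top, whereas Il23a ranked 2260. Itih5, Tnip3 and Sntb1 ranked 1682, 1837 and 1865 from the bottom there, far from the ranks they held with Oxyrase. With pyruvate against lactate, Ptprn ranked 48, Inhba 70, Spp1 97 and Penk 130 from the top, and Il23a 1043. For lactate with Oxyrase against NaCl, Il23a ranked 68, Inhba 88, Ptprn 106, Spp1 185 and Penk 347 from the top. With lactate against NaCl, Ptprn, Penk and Inhba ranked 203, 257 and 281 from the bottom. The genes were chosen for large changes in these same libraries, so extreme ranks follow from the choice and are given as a description.

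Counted by libraries, all 8 genes had no overlap between lactate with Oxyrase and lactate, 5 higher and 3 lower, where 28.7% of tested genes were higher and 27.2% lower without overlap. Against NaCl the Oxyrase group gave the same 5 higher and 3 lower, beside 29.6% and 27.5% of tested genes. Pyruvate against NaCl gave 4 higher, 1 lower and 3 overlapping (17.8% and 16.0% of tested genes). Pyruvate against lactate gave 5 higher, 1 lower and 2 overlapping (20.3% and 19.3%). Lactate against NaCl gave 0 higher, 3 lower and 5 overlapping (13.6% and 13.9%). The genes were chosen on these comparisons and the comparisons share libraries, so nothing is read from these counts.

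**Figure D2:**
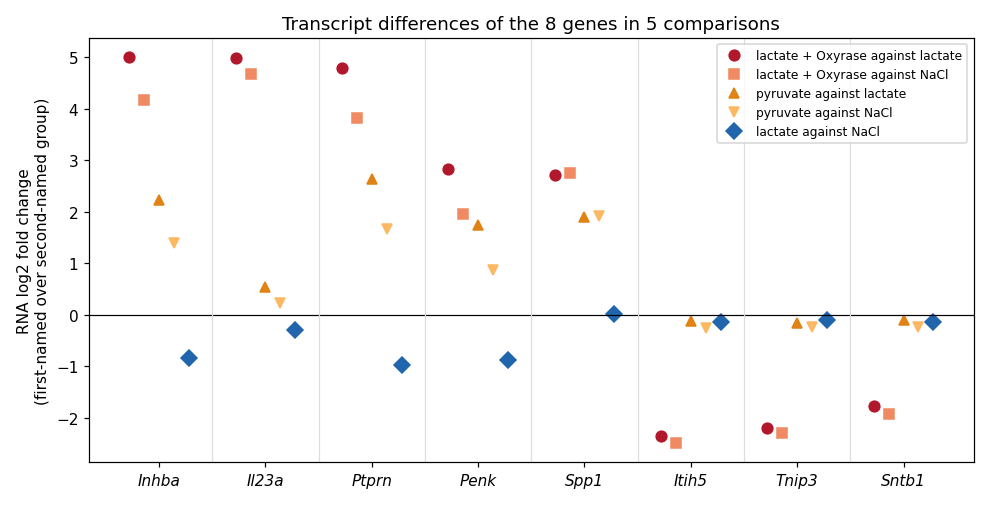
Fitted RNA log2 fold change (vertical axis, first-named over second-named group) of the 8 genes in 5 comparisons that share libraries; points are values of 1 model, shown without a test. Inhba, Il23a and Ptprn lie near 5 in lactate with Oxyrase against lactate, and Itih5, Tnip3 and Sntb1 lie near 0 wherever Oxyrase is not involved.

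Other transcripts followed the 8 genes closely across the 12 RNA libraries, as described by Pearson's r of log2 CPM; points of 1 group share a treatment, so these values mostly restate differences between groups. Likest to Inhba were Twsg1, which encodes a secreted modulator of BMP signals (r = 0.996), the kinase gene Plk2 (r = 0.995) and Mdm2, the gene of the p53 ubiquitin ligase (r = 0.993). Likest to Il23a were Ghitm, Glce and Sel1l (r = 0.995, 0.994 and 0.994), and likest to Ptprn were Cdh23, Slc15a3 and Cd274, the gene of the inhibitory ligand PD-L1 (r = 0.990, 0.989 and 0.988). Penk was followed by Adora2a, which encodes an adenosine receptor (r = 0.992), by St3gal1 and by Ralgapa1. Spp1 was followed by Gnptab, by the scavenger receptor gene Cd36 (r = 0.992) and by Pdcd1lg2, the gene of PD-L2 (r = 0.991). Among the genes low with Oxyrase, Itih5 was followed by Dusp7 and Mlec, and Tnip3 by Snd1, Rbbp7 and Psmd1. Sntb1 was followed by Fam78a, Eif4ebp2 and Itih5 itself (r = 0.988). Within the set, r ran from 0.803 for Spp1 with Il23a to 0.988 for Ptprn with Inhba among the 5 genes high with Oxyrase.

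Marker transcripts of CD8 T cells and of other cells moved with the same groups. The summed level of 8 CD8 T cell markers was 1583 to 1659 CPM with lactate and Oxyrase, 2054 to 2094 CPM with pyruvate, 2203 to 2274 CPM with lactate and 2274 to 2334 CPM with NaCl. The members differed in size of change. Cd8a averaged 406 CPM with lactate and Oxyrase and 659 CPM with lactate, and Cd2 averaged 93.0 and 225 CPM. Cd3d (140 and 148 CPM) and Cd3e (172 and 178 CPM) were nearly level, and Cd3g, Cd8b1, Trac and Lck were lower with Oxyrase. The summed level of 10 macrophage and monocyte markers was 6.11 to 8.04 CPM with lactate and Oxyrase, 4.16 to 5.03 CPM with pyruvate, 2.16 to 2.45 CPM with lactate and 2.01 to 2.53 CPM with NaCl. Cd68 and Ccr2 made up most of that sum, and the defining markers Adgre1, Csf1r and Lyz2 averaged 0.123 CPM or less in every group, with C1qa at 0 throughout. The 7 dendritic cell markers summed to 19.9 to 21.6 CPM with lactate and Oxyrase, 13.1 to 14.3 CPM with pyruvate, 7.46 to 8.67 CPM with lactate and 9.56 to 10.8 CPM with NaCl, nearly all from Zbtb46. The 8 B cell markers summed to 66.7 to 77.3 CPM with lactate and Oxyrase, 148 to 152 CPM with pyruvate, 189 to 198 CPM with lactate and 201 to 211 CPM with NaCl, nearly all from Ighm. Sums were 177 to 203 CPM for NK cell markers, 10.1 to 13.96 CPM for CD4 and regulatory T cell markers and 14.1 to 17.8 CPM for stromal markers with lactate and Oxyrase. With NaCl they were 122 to 142 CPM, 20.9 to 21.0 CPM and 25.4 to 29.2 CPM in that order, and neutrophil and mast cell markers summed to at most 0.253 CPM in any library. Klrk1 made up most of the NK cell sum, at 147 CPM with lactate and Oxyrase and 97.7 CPM with NaCl. Klri2 was higher with Oxyrase too (21.9 and 5.32 CPM), but Eomes was lower (19.3 and 29.1 CPM). Ncr1, Klrb1c and Klra8 averaged 0.109 CPM or less in every group. Ikzf2 made up most of the CD4 and regulatory T cell sum, with Cd4 at 0.498 CPM or less. Pecam1 made up most of the stromal sum, with Col3a1 and Cdh5 at 0. The part of these shifts in the levels of the 8 genes was not tested. In bulk RNA, fewer cells of a type and less RNA per cell cannot be told apart.

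Peaks near the 8 genes passed the test with Oxyrase no more often than peaks elsewhere, so their number is no result about these genes. For lactate with Oxyrase against lactate, 16 of the 71 peaks (22.5%) passed edgeR's quasi-likelihood test at an adjusted p under 0.05, 11 higher and 5 lower, beside 28.4% of all peaks, 15.6% higher and 12.8% lower. Against NaCl, 28 of 71 (39.4%) passed, 22 higher and 6 lower, beside 40.7% of all peaks, 21.5% higher and 19.2% lower. Scaled by library totals, which moves the median of all peaks in that comparison by 0.11 on the log2 scale, 35 passed, 32 higher and 3 lower. The direction at the genes did not follow the transcripts throughout: the 31 peaks of the 5 genes high with Oxyrase had 7 higher and 2 lower, and the 40 peaks of the 3 genes low with Oxyrase had 4 higher and 3 lower, against lactate. Against NaCl those counts were 13 higher and 5 lower, and 9 higher and 1 lower. The median log2 fold change against lactate was 0.13 over those 31 peaks and 0.04 over those 40, beside -0.02 over all peaks. Without lactate 1, 14 peaks passed against lactate, and without NaCl 3, 29 passed against NaCl.

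Ptprn had the largest change in accessibility near its start site. The peak chr1:75264178-75264378, which overlaps the Ptprn promoter shown above, had 2.96, 4.15 and 2.86 CPM with lactate and Oxyrase, 1.74, 1.65 and 1.74 CPM with pyruvate, 1.66, 1.07 and 1.48 CPM with lactate, and 1.39, 1.59 and 1.46 CPM with NaCl. All 3 Oxyrase libraries lay above the other 9. The log2 fold change was 1.23 ± 0.23 (SE) against lactate (adjusted p = 5.96e-05) and 1.16 ± 0.23 against NaCl (adjusted p = 5.81e-05), from 28 to 133 counts per library. A neighbouring peak at chr1:75263039-75263589 was higher against lactate (log2 fold change 0.66 ± 0.14, adjusted p = 0.000337) and against NaCl (0.36 ± 0.14, adjusted p = 0.0327). The call against NaCl was lost in 6 of 21 alternatives, among them without NaCl 1 or NaCl 3 and without lactate with Oxyrase 2 or 3 (adjusted p 0.00053 to 0.127 over all 21). Of the 12 Ptprn peaks 3 rose and 0 fell against lactate, a called share below the 28.4% of all peaks (15.6% higher, 12.8% lower). The third peak that rose, 18.6 kb upstream, had a log2 fold change of 0.77 ± 0.24 (adjusted p = 0.0123). Pyruvate, with which Ptprn RNA was 3.16-fold that of NaCl, gave no call at any Ptprn peak, as at none of all 75802 peaks (0.0%).

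The smallest p of the 71 peaks for lactate with Oxyrase against lactate fell in the Il23a window, where other genes lie close by. The peak at the higher-coordinate end of Il23a, chr10:128297892-128298458, had 26.10, 27.15 and 24.86 CPM with lactate and Oxyrase, 19.08, 18.96 and 18.86 CPM with pyruvate, 17.59, 14.59 and 16.72 CPM with lactate, and 18.22, 19.37 and 16.11 CPM with NaCl. It rose in the Oxyrase libraries, with a log2 fold change of 0.67 ± 0.09 against lactate (adjusted p = 3.04e-07) and 0.54 ± 0.09 against NaCl (adjusted p = 5.88e-06). The peak chr10:128256242-128256828, 39.3 kb away and 341 bp from the end of Apon, had 28.62, 27.30 and 26.02 CPM with lactate and Oxyrase, 20.03, 16.10 and 21.36 CPM with pyruvate, 15.22, 13.52 and 13.49 CPM with lactate, and 16.33, 16.89 and 15.90 CPM with NaCl. Its log2 fold change was 0.96 ± 0.10 against lactate (adjusted p = 3.54e-10), and it also rose with pyruvate against lactate (0.45 ± 0.10, adjusted p = 0.00212). Both Oxyrase calls and the pyruvate call held in all 21 alternatives.

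A further Il23a peak that rose, chr10:128258971-128259322, lies 3070 bp from the end of Apon and was chosen after its values were seen. It had 14.58, 13.99 and 13.48 CPM with lactate and Oxyrase, 8.32, 7.24 and 7.59 CPM with pyruvate, 9.25, 7.47 and 9.17 CPM with lactate, and 7.91, 7.65 and 8.83 CPM with NaCl. Its log2 fold change was 0.70 ± 0.11 against lactate (adjusted p = 6.66e-06) and 0.78 ± 0.11 against NaCl (adjusted p = 3.42e-07).

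Some peaks in the Il23a window lie at the ends of neighbouring genes and were lower. A peak at the end of Pan2, chr10:128302966-128304158, had 47.06, 50.27 and 46.72 CPM with lactate and Oxyrase, 75.76, 78.54 and 67.04 CPM with pyruvate, 61.36, 52.32 and 55.32 CPM with lactate, and 76.46, 78.59 and 62.75 CPM with NaCl. It was the only 1 of the 71 peaks called in lactate against NaCl (1.41%, log2 fold change -0.36 ± 0.09, adjusted p = 0.0115), beside 6.41% of all peaks, 1.13% higher and 5.28% lower. That call was lost in 5 of 21 alternatives: without NaCl 1, NaCl 2, lactate 2 or lactate 3, and when peaks at gene ends were scaled separately (adjusted p 0.000128 to 0.137 over all 21). Scaled by library totals 5 peaks were higher and 1 lower, and with a loess trend 3 higher and 1 lower. Without NaCl 3, 9 of the 71 peaks passed in lactate against NaCl, without lactate 1, 3, without lactate with Oxyrase 2, 2, and without NaCl 1, NaCl 2, lactate 2 or lactate 3, 0. The Pan2 peak was also lower with lactate and Oxyrase than with NaCl (-0.60 ± 0.09, adjusted p = 1.6e-06). Peaks at the ends of Cnpy2 and Cs, chosen after their values were seen, were lower with lactate and Oxyrase than with lactate (adjusted p = 0.0128 and 0.0383).

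**Figure D3:**
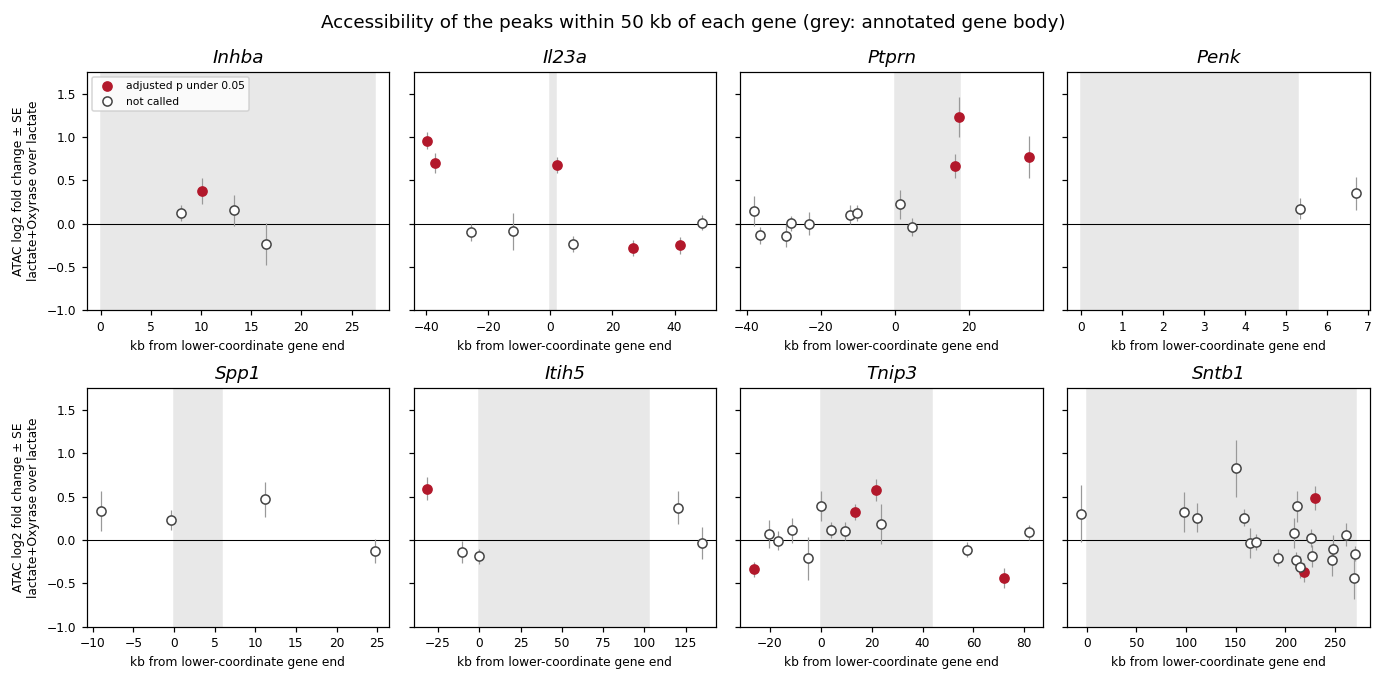
ATAC log2 fold change (vertical axes, with SE) of lactate with Oxyrase over lactate for the 71 peaks by distance in kb from the lower-coordinate end of each gene; grey marks the annotated gene, and filled points have an adjusted p under 0.05. Called peaks include 3 of 12 at Ptprn, 5 of 9 at Il23a (3 higher, 2 lower), and 0 at Penk and Spp1. Over all peaks 28.4% were called, and peaks in the Il23a window also lie at neighbouring genes, so nothing is read from these counts.

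At the other genes high with Oxyrase the differences were smaller. The peak chr13:16011870-16012766 overlaps 31 bases of the Inhba promoter window. It had 21.64, 20.26 and 21.26 CPM with lactate and Oxyrase and 19.02, 18.41 and 17.37 CPM with pyruvate. Its level was 19.43, 18.96 and 19.56 CPM with lactate, and 17.29, 16.78 and 19.75 CPM with NaCl. It was called against NaCl (log2 fold change 0.23 ± 0.09, adjusted p = 0.0404), a call lost in 9 of 21 alternatives, among them without NaCl 1 or 2, lactate 1 or lactate with Oxyrase 1 or 3 (adjusted p 0.00411 to 0.22), and not against lactate (0.12 ± 0.09, adjusted p = 0.32). A peak inside Inhba, chr13:16014231-16014454, passed against lactate (0.38 ± 0.15, adjusted p = 0.0472) and lost that call in 11 of 21 alternatives, among them without any 1 of the lactate libraries, pyruvate 1 or 2, or lactate with Oxyrase 2 or 3 (adjusted p 0.0388 to 0.224). Another inside Inhba, chr13:16017388-16017769, passed against NaCl (0.66 ± 0.18, adjusted p = 0.00336) and kept that call in every alternative.

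The start-site peak of Spp1, chr5:104434187-104435343, had 10.67, 13.84 and 12.51 CPM with lactate and Oxyrase, 9.30, 8.49 and 9.23 CPM with pyruvate, 10.79, 9.46 and 11.20 CPM with lactate, and 9.84, 9.83 and 9.92 CPM with NaCl. It rose against NaCl (log2 fold change 0.32 ± 0.11, adjusted p = 0.0199; lost without NaCl 1 or lactate with Oxyrase 2 and with a loess trend, adjusted p 0.000137 to 0.14) but did not pass against lactate (0.23 ± 0.11, adjusted p = 0.118). With pyruvate, where Spp1 RNA was 3.80-fold that of NaCl, this peak had a log2 fold change of -0.13 ± 0.12 against NaCl and did not pass, nor did any of all 75802 peaks in that comparison. A peak 5.17 kb downstream of Spp1 rose against NaCl (0.74 ± 0.21, adjusted p = 0.00345). Penk had 2 peaks, and neither passed in any of the 5 comparisons; the peak at its higher-coordinate end, chr4:4138532-4139226, had a log2 fold change of 0.17 ± 0.12 for lactate with Oxyrase against lactate (adjusted p = 0.309).

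Near the 3 genes low with Oxyrase, called peaks went both ways. The Itih5 start-site peak, chr2:10152412-10154020, had 24.39, 23.19 and 21.03 CPM with lactate and Oxyrase, 26.06, 27.27 and 23.83 CPM with pyruvate, 23.55, 28.69 and 26.21 CPM with lactate, and 26.44, 25.65 and 27.19 CPM with NaCl. It did not pass against lactate (log2 fold change -0.19 ± 0.09, adjusted p = 0.114) or NaCl (-0.21 ± 0.09, adjusted p = 0.0639). The peak 31.3 kb upstream, chr2:10121846-10122247, 8436 bp from the end of Itih2, rose with Oxyrase while Itih5 RNA was low (0.59 ± 0.13 against lactate, adjusted p = 0.000647).

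The Tnip3 start-site peak, chr6:65590202-65590478, had 4.51, 5.05 and 3.89 CPM with lactate and Oxyrase, 3.42, 2.94 and 3.02 CPM with pyruvate, 3.57, 3.33 and 3.39 CPM with lactate, and 2.43, 3.55 and 3.67 CPM with NaCl. Although Tnip3 RNA was low with Oxyrase, this peak was higher than with NaCl (log2 fold change 0.47 ± 0.17, adjusted p = 0.0264; lost in 4 of 21 alternatives, among them without NaCl 1 and without lactate with Oxyrase 1 or 2, adjusted p 0.00134 to 0.197). Against lactate its log2 fold change was 0.39 ± 0.17 (adjusted p = 0.0874). A peak inside Tnip3, chr6:65611949-65612500, rose against lactate (0.57 ± 0.13, adjusted p = 0.000503) and NaCl (0.81 ± 0.13, adjusted p = 1.61e-06). Of the 14 Tnip3 peaks 2 rose and 2 fell against lactate (28.6% called, beside 28.4% of all peaks). Those that fell lie 25.3 kb upstream (-0.34 ± 0.09, adjusted p = 0.00285) and 27.9 kb downstream (-0.44 ± 0.12, adjusted p = 0.00341).

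Sntb1, the longest of the 8 genes, had 21 peaks, of which 1 rose and 1 fell against lactate (9.52% called, beside 28.4% of all peaks). The peak inside the gene that rose, chr15:55866208-55866525, had a log2 fold change of 0.48 ± 0.14 (adjusted p = 0.00847; lost without lactate 1 or lactate with Oxyrase 2, adjusted p 0.00358 to 0.111). The peak that fell, chr15:55854557-55854923, had a log2 fold change of -0.37 ± 0.11 (adjusted p = 0.0111). Another inside the gene, chr15:55794419-55795237, rose against NaCl (0.36 ± 0.10, adjusted p = 0.00359) and kept that call in all 21 alternatives. The peak at the higher-coordinate end of Sntb1, chr15:55905795-55907209, had 28.92, 30.98 and 28.39 CPM with lactate and Oxyrase, 30.93, 27.45 and 25.65 CPM with pyruvate, 31.85, 32.17 and 34.44 CPM with lactate, and 26.59, 27.54 and 30.49 CPM with NaCl. It did not pass for lactate with Oxyrase against lactate (log2 fold change -0.16 ± 0.09, adjusted p = 0.186).

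**Figure D4:**
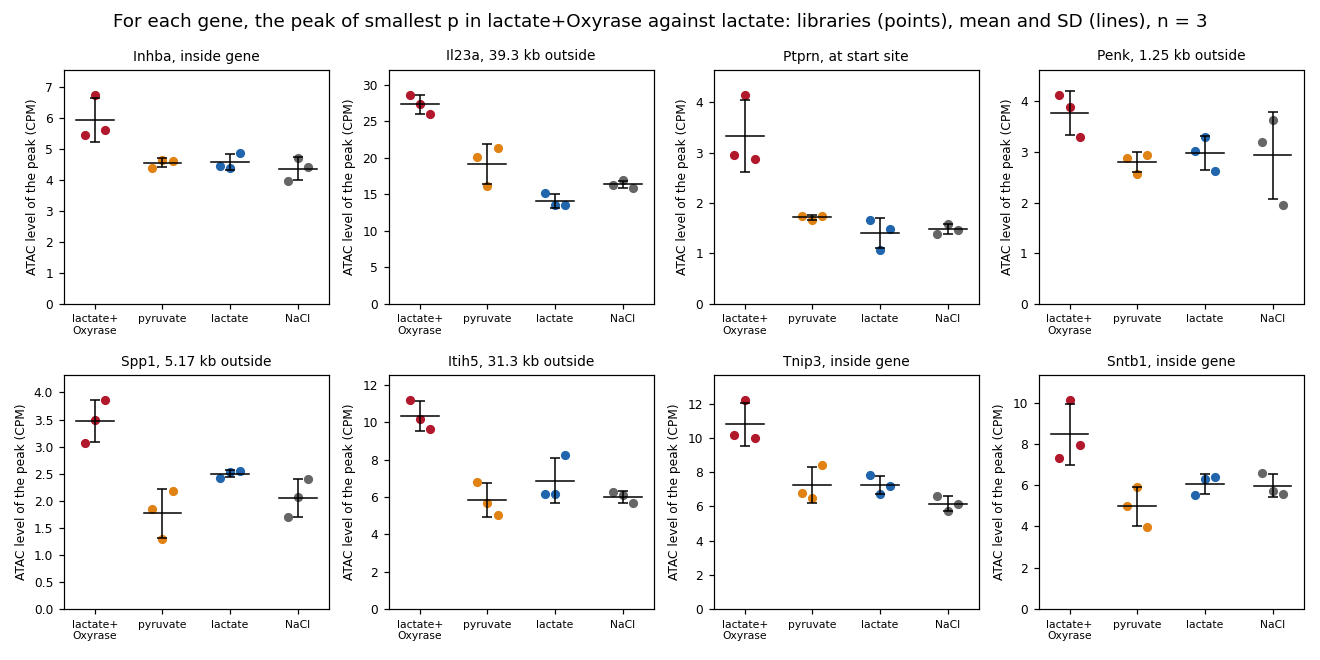
ATAC level in CPM (vertical axes, each from 0) of the peak with the smallest p at each gene in lactate with Oxyrase against lactate; points are libraries, lines the mean with its SD (n = 3), and each title gives the peak's place. The 3 Oxyrase libraries lie above the 3 lactate libraries in 7 panels, also at Itih5, Tnip3 and Sntb1, whose RNA was lowest with Oxyrase. At Penk the nearest libraries of both groups are level at 3.29 CPM. Each peak was chosen by its p in this same comparison, so nothing is read from the number of panels without overlap.

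Without Oxyrase little passed near the 8 genes. Pyruvate against NaCl gave 0 of 71 peaks with edgeR and 0 with DESeq2, beside 0.0% of all peaks; at an unadjusted p under 0.05 there were 4 of the 71 and 4060 of all 75802. Pyruvate against lactate gave 9 of 71 (12.7%), 2 higher and 7 lower, beside 11.6% of all peaks, 6.84% higher and 4.78% lower; RLE scaling and DESeq2 each gave 2 higher and 4 lower. Both higher peaks lie in the Il23a window, and the 7 lower ones lie at Tnip3 and Sntb1, 3 and 4 of them. The strongest of these were a peak 16.6 kb upstream of Tnip3 (log2 fold change -0.45 ± 0.11, adjusted p = 0.00425) and a peak inside Sntb1 (-0.37 ± 0.09, adjusted p = 0.00534). Without lactate 1, 6 peaks passed in this comparison and without lactate 3, 5.

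To set the 8 genes beside their pathways, 131 partner genes in 8 lists were examined, of which 79 had enough counts to be tested. The lists were drawn up with earlier results of these data known. Nothing is therefore read from a share of called partner genes above that of all tested genes, here or in the single lists below. For lactate with Oxyrase against lactate 57 of the 79 passed, 39 higher and 18 lower, beside 49.7% of all tested genes, 26.1% higher and 23.6% lower. For lactate with Oxyrase against NaCl 54 passed (36 higher, 18 lower), beside 50.8% of all tested genes, 26.5% higher and 24.3% lower. Pyruvate against NaCl gave 23 (16 higher, 7 lower), beside 15.7%, of which 9.4% higher and 6.28% lower. Lactate against NaCl gave 10 (1 higher, 9 lower), beside 7.73%, of which 3.61% higher and 4.12% lower. Pyruvate against lactate gave 25 (23 higher, 2 lower), beside 24.0%, of which 13.0% higher and 10.9% lower. Without pyruvate 2, 12 passed for pyruvate against NaCl; for lactate against NaCl 3 passed without NaCl 1, 4 without NaCl 2 and 5 each without lactate 2 or lactate 3. Means below are CPM ± SD of 3 libraries, and the adjusted p-values are edgeR's.

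Around Inhba, the activin and TGF-β list had 9 of 19 tested members higher and 4 lower for lactate with Oxyrase against lactate. Its median log2 fold change was 0.17, beside -0.0029 over all tested genes. Inha, the α chain that pairs with βA to make inhibin, averaged 0.648 ± 0.118 CPM with lactate and Oxyrase and 0.0448 ± 0.0571 CPM with lactate. Inha is counted among the 9, but it may have passed the low-count filter only through groups in which it was high. Its p-value is therefore not given. Tgfb3, a TGF-β ligand, averaged 1.43 ± 0.198 CPM with lactate and Oxyrase and 0.525 ± 0.0336 CPM with lactate (adjusted p = 0.002), and Tgfb2 passed as well (adjusted p = 0.00428). With pyruvate against NaCl the list had 0 higher and 1 lower, the co-receptor gene Tgfbr3 (log2 fold change -0.20 ± 0.06, adjusted p = 0.0293; lost in 5 of 17 alternatives, among them without NaCl 1 or 2 or pyruvate 1 or 3, adjusted p 0.0181 to 0.136).

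Around Il23a, 5 of 9 tested members of the IL-12 family list were higher and 3 lower for lactate with Oxyrase against lactate. Il12rb1, a chain shared by the receptors of IL-12 and IL-23, averaged 113.9 ± 13.3 CPM with lactate and Oxyrase and 68.8 ± 2.19 CPM with lactate (log2 fold change 0.73 ± 0.07, adjusted p = 1.18e-07). Il12rb2, the other chain of the IL-12 receptor, averaged 676 ± 87.1 CPM with lactate and Oxyrase and 383 ± 17.6 CPM with lactate (0.82 ± 0.09, adjusted p = 5.38e-07). Ebi3, which encodes a chain of IL-27 and IL-35, averaged 2.88 ± 0.568 CPM with lactate and Oxyrase and 1.498 ± 0.404 CPM with lactate (0.94 ± 0.21, adjusted p = 0.0014). Il12b, the gene of the p40 chain with which p19 pairs, was not tested: it had counts in 3 of 12 libraries, at most 1 each, and 0 in the other 9, where 3 counts would be 0.0757 to 0.115 CPM. Il23r, the gene of the other IL-23 receptor chain, was not tested either and had 0 to 0.455 CPM, highest in a library with lactate and Oxyrase.

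Around Ptprn, 4 of 5 tested members of the dense-core vesicle list were higher and 0 lower for lactate with Oxyrase against lactate, and 10 of its 15 members were not tested for low counts. Vgf, which encodes a secreted granin-like protein, averaged 4.61 ± 0.611 CPM with lactate and Oxyrase and 1.45 ± 0.200 CPM with lactate (log2 fold change 1.67 ± 0.18, adjusted p = 6.37e-07). Pcsk1, the gene of the prohormone convertase that cuts peptide precursors, averaged 5.38 ± 0.616 CPM with lactate and Oxyrase and 2.13 ± 0.374 CPM with lactate (1.35 ± 0.16, adjusted p = 2.78e-06). Scg2, a granin gene, averaged 0.694 ± 0.215 CPM with lactate and Oxyrase and 0.0350 ± 0.0607 CPM with lactate. Scg2 is counted among the 4, but it too may have passed the low-count filter only through groups in which it was high, so its p-value is not given. Among partners of Penk only 2 of 10 were tested, and both were lower: the opioid precursor gene Pomc, at 0.249 ± 0.0843 CPM with lactate and Oxyrase and 0.698 ± 0.120 CPM with lactate, and the enkephalin-degrading peptidase gene Dpp3 (-0.21 ± 0.04, adjusted p = 0.00056).

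Among receptors of osteopontin, the ligand encoded by Spp1, 3 of 8 tested members were higher and 3 lower for lactate with Oxyrase against lactate. Itgav, the αv integrin gene, averaged 246 ± 9.34 CPM with lactate and Oxyrase and 119.9 ± 2.18 CPM with lactate (log2 fold change 1.04 ± 0.05, adjusted p = 8.07e-11). Its partner chain Itgb3 fell to 10.1 ± 0.533 CPM with lactate and Oxyrase, against 17.4 ± 2.23 CPM with lactate (-0.78 ± 0.08, adjusted p = 5.41e-07). With pyruvate against NaCl, Cd44 averaged 544 ± 31.0 CPM with pyruvate and 393 ± 15.4 CPM with NaCl (0.47 ± 0.05, adjusted p = 2.89e-06), and Itgav rose as well (0.44 ± 0.05, adjusted p = 3.16e-05). Itga4, the α4 integrin gene, fell with pyruvate against NaCl (-0.47 ± 0.06, adjusted p = 2.2e-05) and with lactate and Oxyrase against NaCl (-0.79 ± 0.06, adjusted p = 3.65e-09).

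For the genes low with Oxyrase, the hyaluronan list around Itih5 had 0 of 5 tested members higher and 3 lower against lactate. These were the hyaluronan synthase gene Has3 (log2 fold change -0.83 ± 0.29, adjusted p = 0.0239, lost without lactate 1 or 2 or lactate with Oxyrase 1 or 2, adjusted p 0.0131 to 0.0817), the hyaluronidase gene Hyal2 (-0.39 ± 0.07, adjusted p = 0.000169) and the proteoglycan gene Vcan (-0.58 ± 0.18, adjusted p = 0.0123, lost without lactate 3, adjusted p 0.00411 to 0.0742). The A20 and NF-κB list around Tnip3 had 14 of 22 members higher and 2 lower. Nfkb2 averaged 516 ± 18.6 CPM with lactate and Oxyrase and 254 ± 3.11 CPM with lactate (1.02 ± 0.04, adjusted p = 1.15e-12), and Relb, the gene of its binding partner, averaged 67.5 ± 2.95 CPM with lactate and Oxyrase and 38.1 ± 0.299 CPM with lactate (0.83 ± 0.05, adjusted p = 5.9e-10). Relb was in turn lower with lactate than with NaCl (-0.34 ± 0.05, adjusted p = 0.000853). Nfkb2, Rel and Rela passed as lower in that comparison too, so 4 of the 22 tested members of this list fell. They are among the 9 of all 79 tested partner genes that fell, beside 4.12% of all tested genes. The Rel call was lost in 10 of 17 alternatives, among them without any 1 of the lactate libraries, NaCl 1 or 2, pyruvate 3 or lactate with Oxyrase 2 or 3 (adjusted p 0.00877 to 0.195). The Rela call was lost without NaCl 1 or lactate 2 (adjusted p 0.00133 to 0.0612).

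The dystrophin list around Sntb1 had 4 of 9 tested members higher and 1 lower for lactate with Oxyrase against lactate. The lower one was Sntb2, the gene of the related β2-syntrophin, at 10.3 ± 0.425 CPM with lactate and Oxyrase and 12.9 ± 0.684 CPM with lactate (log2 fold change -0.33 ± 0.09, adjusted p = 0.00545). Abca1, a cholesterol exporter gene whose product binds syntrophins, was higher (0.98 ± 0.16, adjusted p = 6.61e-05). Utrn, the dystrophin relative utrophin, averaged 142 ± 4.87 CPM with pyruvate and 116 ± 4.49 CPM with NaCl (0.29 ± 0.04, adjusted p = 0.000241), and Dag1, the gene of dystroglycan, rose in the same comparison (0.33 ± 0.06, adjusted p = 0.0015).

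**Figure D5:**
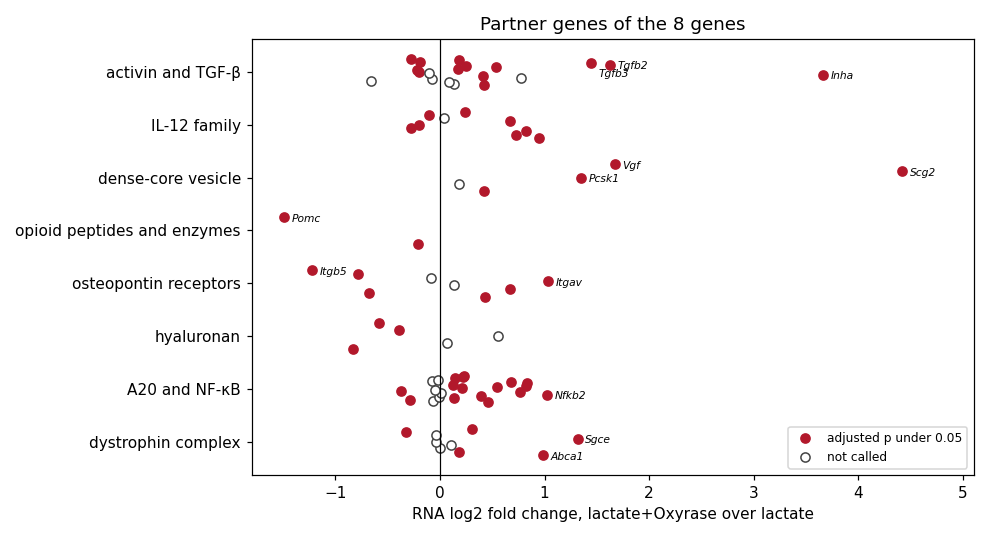
RNA log2 fold change (horizontal axis) of lactate with Oxyrase over lactate for the 79 tested partner genes in 8 lists; filled points have an adjusted p under 0.05, and genes past 0.95 in size are named. Nfkb2, Itgav, Vgf and Pcsk1 lie above 1, while the positions of Inha and Scg2 rest on means under 0.1 CPM in lactate.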

How the data were processed

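RNA-seq and ATAC-seq libraries of CD8 T cells, 3 per treatment in each assay, were analysed from 2 deposited tables. The RNA table holds estimated counts per gene as deposited by the authors; RSEM 1.2.12, Bowtie2 2.2.0, edgeR 3.20.9 and build mm10 are named in the submitters' processing notes, without their role. The peak table holds read counts per peak of 1 shared set of peaks, deposited by the authors as whole numbers; Trimmomatic, BWA, Picard, MACS2 and bedtools stand in the submitters' processing notes without a stated order. Whether counting used strand is not given in the sources used here. Of the RNA values above 0, 99.24% were whole (tolerance 1e-09), and 460 genes held a fractional value above 1, of which 448 were at 0 in all libraries of 1 replicate number; such values look adjusted by replicate number, in which case RNA p-values may be too small.

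Estimated counts were rounded. filterByExpr dropped low-count genes from the RNA table and no peak from the ATAC table, TMM scaled the libraries, and edgeR 4.0.16 (R 4.3.3, limma 3.58.1) fitted 1 quasi-likelihood model over the 12 libraries, leaving 8 residual degrees of freedom. The 5 comparisons came from it, with Benjamini-Hochberg adjustment over all genes or peaks and a threshold of 0.05; errors of fold changes are SE. Depth was 26.04 to 39.64 M counts for RNA and 25.31 to 37.07 M for ATAC; p-values and intervals cover counting error and the spread between 3 libraries only. The scripts were tested on simulated data. Levels are CPM on TMM-scaled library sizes. The 8 genes and the lists of partner and marker genes were chosen with earlier results of these data known. Partner lists are activin and TGF-β, IL-12 family, dense-core vesicle, opioid, osteopontin receptors, hyaluronan, A20 and NF-κB, and dystrophin. Candidates for naming were peaks within 1 kb of a member's end, the peak of smallest p per gene and comparison, up to 3 called partner genes per list and comparison with the largest change, and the 3 genes likest each member, of which 1 is not reported here; the text gives part of these candidates, and which of them, as well as other peaks or genes it names, was chosen after values were seen. Symbols were matched for 55141 of 55401 gene IDs, and gene positions come from RefSeq GRCm38.p6; peak positions are printed as deposited, and whether their starts count from 0 or 1 is not stated. Alternatives were another scaling, DESeq2 1.42.0, other filters, windows and thresholds, a replicate block and leaving out each library. Replicate numbers were not treated as pairs. Correlations of same-numbered libraries were -0.15 to 0.17 in ATAC, with no comparison over 0.1 in all 3 pairs; in RNA they were -0.21 to -0.10, but an adjustment by replicate number would itself remove such correlation, so the RNA values cannot show whether the numbers pair the libraries.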

Additional observations from a re-analysis of the deposited data

How the results depend on the processing

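With 3 libraries per group, small peaks limit what can be seen: the Ptprn start-site peak rests on 28 to 133 counts per library. No called peak or partner gene among the candidates for naming changed direction under any alternative run. Leaving out each library in turn gave 14 to 21 called peaks for lactate with Oxyrase against lactate (16 with all), 20 to 29 against NaCl (28 with all), 5 to 10 for pyruvate against lactate (9 with all) and 0 to 9 for lactate against NaCl (1 with all). Among partner genes it gave 12 to 26 for pyruvate against NaCl (23 with all) and 3 to 12 for lactate against NaCl (10 with all).

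At an adjusted p under 0.01 the called peaks numbered 18 for lactate with Oxyrase against NaCl, 5 for pyruvate against lactate and 0 for lactate against NaCl, and the partner genes 14 for pyruvate against NaCl and 4 for lactate against NaCl. Windows of 25 and 100 kb gave 10 and 36 peaks for lactate with Oxyrase against lactate, and 100 kb gave 52 against NaCl. For lactate against NaCl the count was 6 with library totals, 2 with a mean of at least 2 CPM, 4 with a loess trend, and 1 with separate scaling of gene-end peaks, there a higher peak.

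The labels do not say that replicate numbers pair the libraries, the ATAC libraries did not meet the check for it, and the RNA values, apparently adjusted by replicate number, cannot show it. With the replicate block 21 peaks passed for lactate with Oxyrase against lactate, 30 against NaCl, 9 for pyruvate against lactate, 4 for lactate against NaCl and 0 for pyruvate against NaCl. Over all peaks the block gave more calls than the main model. They were 23712 against 21539 for lactate with Oxyrase against lactate and 32437 against 30885 for lactate with Oxyrase against NaCl. For pyruvate against lactate they were 10845 against 8804, and for lactate against NaCl 6775 against 4857. Among partner genes the block gave 55 for lactate with Oxyrase against lactate, 50 against NaCl, 20 for pyruvate against NaCl, 23 for pyruvate against lactate and 7 for lactate against NaCl.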
